A study of Mus musculus with 19 samples.

Results

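Macrophages are the phagocytes of tissue, and monocytes are the blood cells that can become macrophages after they enter it. The genes described here are 33 genes of these cells, named in a list that covers their lysosomes, chemokines, surface receptors, Fc receptors and complement. Where several probe sets with 1 gene symbol measured a gene, the brightest by its mean over all 19 samples was taken. This gave 32 measured genes of 18193 measured in all, and Spp1 was not analysed here. RNA came from EDL muscle (extensor digitorum longus, which lifts the toes and consists mostly of fast fibres). There were 9 wild-type samples from FVB mice and 10 HSALR samples from transgenic FVB mice of HSALR line 20 b, all aged 19 weeks. HSALR mice carry a human skeletal actin gene with a long CTG repeat and are a model of myotonic dystrophy. The transgene is driven in skeletal muscle fibres, and all HSALR samples come from 1 transgenic line. Each sample was measured on 1 Affymetrix array, with values used as log2(signal + 16), a scale whose floor is 4 and which understates the change of dim genes.

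In resting muscle, macrophages lie between the fibres, clear debris and signal to satellite cells and fibroblasts. After injury, chemokines that bind CCR2 bring in monocytes, which engulf dying fibres and later take on a repair state. These cells depend on signals through the CSF1 receptor, sense immune complexes through activating Fc receptors paired with the adaptor FCER1G, signal from receptors such as TREM2 through the adaptor TYROBP, and secrete the C1q proteins that start the classical complement pathway.

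The sequence upstream of the start sites was not used to choose the genes. RefSeq promoters of build GRCm38.p6 were matched for 25 of 32 genes, and the 250 bases before the start were searched on both strands. The core AGGAAGT, bound by PU.1, the main transcription factor of the macrophage lineage, stood in 6 of 25 genes (24.0%) and in 8.80% of all 27025 genes of the table. The AP-1 motif TGANTCA stood in 5 of 25 genes (20.0%) and in 7.82% of all genes. The E-box TCACGTG, found in genes of lysosome biogenesis, stood in 0 of 25 genes and in 3.58% of all genes. Most of the genes thus lacked each of these motifs, and the shares were not tested. A match is a description of letters and shows no binding. The windows of 3 genes that rose in HSALR muscle and of a C1q gene are printed 5′ to 3′ on the gene's strand, because they hold these motifs, which are in capitals (AP-1 in Cd68 and Ccl9, the reverse complement of the PU.1 core in Ccl6 and C1qb). The 8 genes of the plot of values by sample were likewise chosen with their values known. The windows lie at chr11:69666171-69666420 (Cd68), chr11:83578637-83578886 (Ccl9), chr11:83593088-83593337 (Ccl6) and chr4:136886201-136886450 (C1qb), all on the minus strand. Lgals3 and Mpeg1 rose too, and their windows held none of these motifs. The motifs were chosen after the files were at hand, and the windows after the search.
Cd68: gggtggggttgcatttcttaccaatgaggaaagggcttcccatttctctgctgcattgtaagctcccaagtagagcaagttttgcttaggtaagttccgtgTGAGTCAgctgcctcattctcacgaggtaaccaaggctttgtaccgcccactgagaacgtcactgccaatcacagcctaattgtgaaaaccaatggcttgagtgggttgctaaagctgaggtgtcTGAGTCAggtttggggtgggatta
Ccl9: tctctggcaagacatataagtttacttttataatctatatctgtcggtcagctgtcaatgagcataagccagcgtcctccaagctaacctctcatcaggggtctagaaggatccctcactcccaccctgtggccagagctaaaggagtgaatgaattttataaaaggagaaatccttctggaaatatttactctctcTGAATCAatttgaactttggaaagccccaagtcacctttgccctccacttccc
Ccl6: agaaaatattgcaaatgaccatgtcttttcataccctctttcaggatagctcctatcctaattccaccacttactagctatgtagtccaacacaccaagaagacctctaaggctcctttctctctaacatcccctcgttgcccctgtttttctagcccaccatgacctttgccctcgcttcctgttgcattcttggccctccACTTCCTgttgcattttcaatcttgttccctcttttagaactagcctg
C1qb: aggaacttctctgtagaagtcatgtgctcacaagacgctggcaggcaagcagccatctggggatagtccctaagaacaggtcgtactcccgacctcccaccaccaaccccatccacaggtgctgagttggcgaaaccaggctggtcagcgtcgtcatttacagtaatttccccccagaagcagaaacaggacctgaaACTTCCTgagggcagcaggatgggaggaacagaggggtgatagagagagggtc

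HSALR samples 9 and 10 stood apart before any gene was read. Their Spearman correlation with each other was 0.978 across tested probe sets, while the highest for any other sample lay between 0.953 and 0.969. Precision is limited by how many arrays there are. No label ties a sample to an animal of its own, and the p-values therefore reflect just the spread among these samples, which may be technical. In a bulk sample, more cells of a type and more RNA per cell cannot be told apart. Results that rest on samples 9 and 10 are therefore given with and without them.

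Setting HSALR against wild-type muscle asks whether the genes of these cells differ in muscle that carries the repeat. Mpeg1, Lgals3, Ccl6, Ccl9 and Cd68 rose in HSALR muscle, by 1.28, 1.27, 1.16, 1.06 and 1.00 on the log2 scale, and no gene of the list fell. A test was made for the 27 genes whose mean over all 19 samples passed a filter on low values, so that 5 of 27 rose (limma, false discovery rate 0.05). Among all 11533 tested genes 3.11% rose and 2.31% fell. Ccl2, Ccl7, Trem2, Itgam and Aif1 were below the filter and are given as values. Over the 32 measured genes the median log2 fold was 0.64, beside 0.04 over all measured genes. The log2 fold was above 0 in 32 of 32, beside 59.9% of all measured genes. Of the 27 tested genes, 21 were higher at an unadjusted p under 0.05, beside 13.8% of all tested genes. In 0 of 32 genes did all 10 HSALR samples lie above every wild-type sample, which was so in 0.434% of the tested genes.

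Without HSALR samples 9 and 10, 3 of the 27 rose, Cd68, Lgals3 and Ccl9, beside 2.09% of all tested genes. At an unadjusted p under 0.05, 9 of the 27 were higher (8.38% of all tested genes), and 15 were so without sample 9 alone (10.9%) or sample 10 alone (10.6%). The median log2 fold over the 32 genes without both samples was 0.31, beside 0.02 over all measured genes, and 31 of 32 were above 0. Other choices moved the count too. It was 15 without HSALR sample 5 (7.4% of tested genes rose), and 3 without HSALR sample 2 (2.61%), 3 (2.25%) or 9 (2.38%) or wild-type sample 5 (2.32%). It was 2 without wild-type sample 2 (2.3%), 6 (2.73%) or 7 (2.19%), and 1 without wild-type sample 3 (2.15%). It was 21 with the control probe sets' 3'/5' signal ratio added as a covariate (8.51%), 12 with array weights (10.8%), 9 after quantile normalization (6.96%) and 1 without the filter (1.52%). That log2 ratio, a measure of RNA quality, averaged -0.06 ± 0.05 in wild type (SD, n = 9), beside -0.11 ± 0.04 for HSALR (SD, n = 10).

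**Figure D1:**
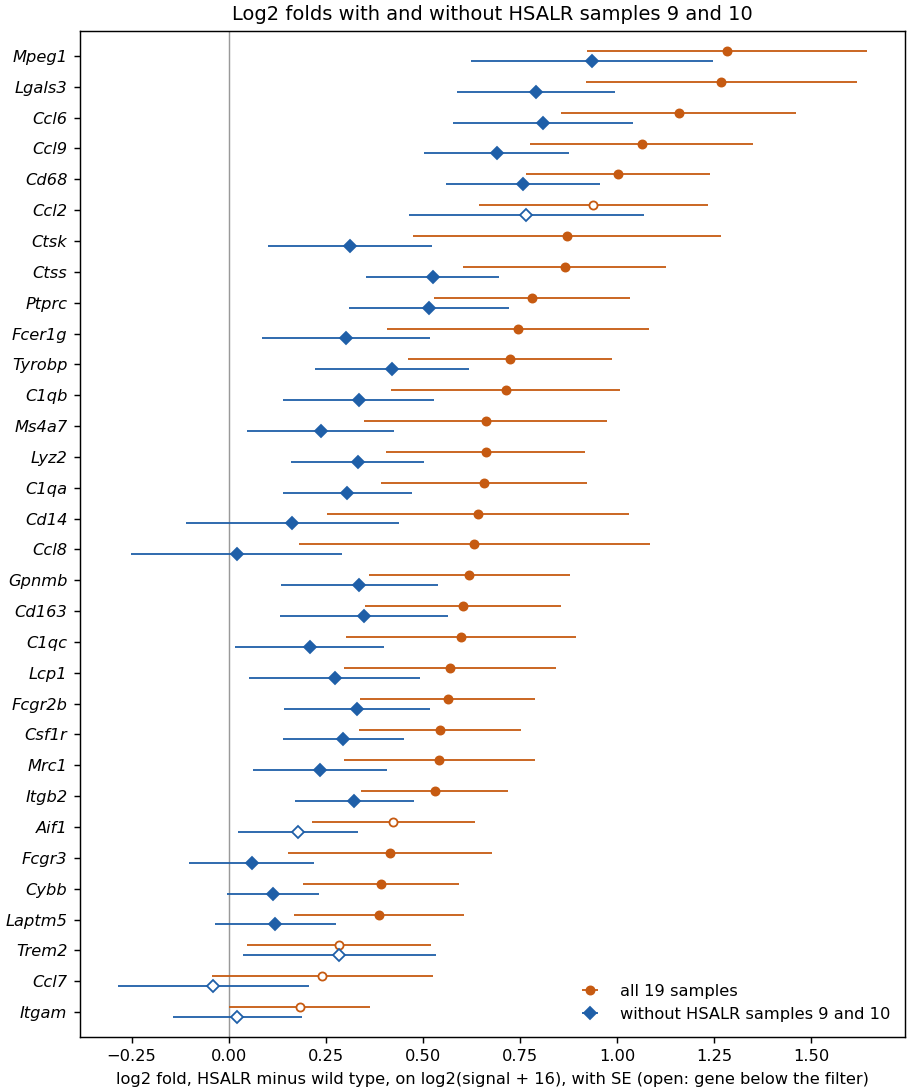
Log2 fold of HSALR minus wild type on the x axis, with its standard error, for each of the 32 measured genes, from all 19 samples (circles) and without HSALR samples 9 and 10 (diamonds); open symbols are genes below the filter. Mpeg1 leads at 1.28 and Itgam is lowest at 0.18, and without samples 9 and 10 the fold of Ccl8 is 0.02.

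Among the genes of the lysosome and of phagocytosis, 3 of 8 rose, beside 3.11% of all tested genes. Without samples 9 and 10, 2 of 8 rose, Cd68 and Lgals3, beside 2.09%. Cd68 is a glycoprotein of the lysosomal membrane and a common stain for macrophages. Its log2 signal in wild type was 6.51 at the lowest, 7.14 at the median and 7.50 at the highest. In HSALR it was 6.84, 8.00 and 9.15, and 8 of 10 exceeded every wild-type sample. The log2 fold was 1.00 ± 0.24 (SE, adjusted p = 0.0132), and without samples 9 and 10 it was 0.76 ± 0.20 (adjusted p = 0.033). Cd68 passed in all 31 fits that tested it, including each fit that left out 1 sample.

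Lgals3 encodes galectin-3, a sugar-binding lectin that macrophages and other cells make. Its log2 signal was 7.88, 8.14 and 8.47 (lowest, median, highest) in wild type and 7.88, 9.10 and 11.6 in HSALR. HSALR sample 4 lay among the wild-type samples and sample 5 just below them all, and the other 8 lay above them. The rise was 2.41-fold (log2 fold 1.27 ± 0.35, adjusted p = 0.0346), and 0.79 ± 0.20 without samples 9 and 10 (adjusted p = 0.0297). The call was lost in 9 of 19 fits without 1 sample, those without wild-type samples 2 to 7 and HSALR samples 2, 3 and 9, with adjusted p up to 0.0636. It was also lost without the filter (adjusted p = 0.0717).

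Mpeg1 encodes perforin-2, a pore-forming protein of phagocytes. Its log2 signal was 5.28, 6.91 and 7.66 (lowest, median, highest) in wild type, where wild-type samples 7 and 9 were lowest, and 6.77, 7.81 and 9.55 in HSALR. In it 6 of 10 HSALR samples exceeded every wild-type sample. The log2 fold was 1.28 ± 0.36 (adjusted p = 0.0388), and 0.94 ± 0.31 without samples 9 and 10, where it missed the threshold (adjusted p = 0.112). Its call was the least stable of the 5 and was lost in 10 of 19 fits without 1 sample, those without wild-type samples 2, 3, 6, 7 and 9 and HSALR samples 1, 2, 8, 9 and 10, with adjusted p up to 0.0827. It was lost as well without the filter (0.0802), with the replicate block (0.104) and with samples 9 and 10 averaged (0.0674).

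The other genes of this group did not pass. Ctss, the lysosomal protease cathepsin S, missed the threshold narrowly (log2 fold 0.86 ± 0.26, adjusted p = 0.0566), with 9.70 as its highest wild-type signal and 8 of 10 HSALR samples above it. It passed without HSALR sample 4 or 5 and after quantile normalization (adjusted p = 0.0229), and its log2 fold was 0.53 without samples 9 and 10. Ctsk, cathepsin K, a collagen-cutting protease of osteoclasts that fibroblasts and macrophages also make, had a log2 fold of 0.87 ± 0.40 (adjusted p = 0.215). Its signals in HSALR samples 9 and 10 were 11.34 and 11.96, while the other 8 lay between 7.75 and 9.74 and wild type between 8.27 and 9.35. Without samples 9 and 10 its log2 fold was 0.31. Lyz2, the lysozyme of myeloid cells, had 0.66 ± 0.26, and Gpnmb, a transmembrane glycoprotein of lysosome-rich macrophages, 0.62 ± 0.26. Laptm5, a lysosomal membrane protein of blood cells, had 0.39 ± 0.22. Without samples 9 and 10 the log2 folds of Lyz2, Gpnmb and Laptm5 were 0.33, 0.34 and 0.12. Its probe sets disagreed, since another tested probe set of Laptm5 had a log2 fold of -0.33 ± 0.20 (adjusted p = 0.371).

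**Figure D2:**
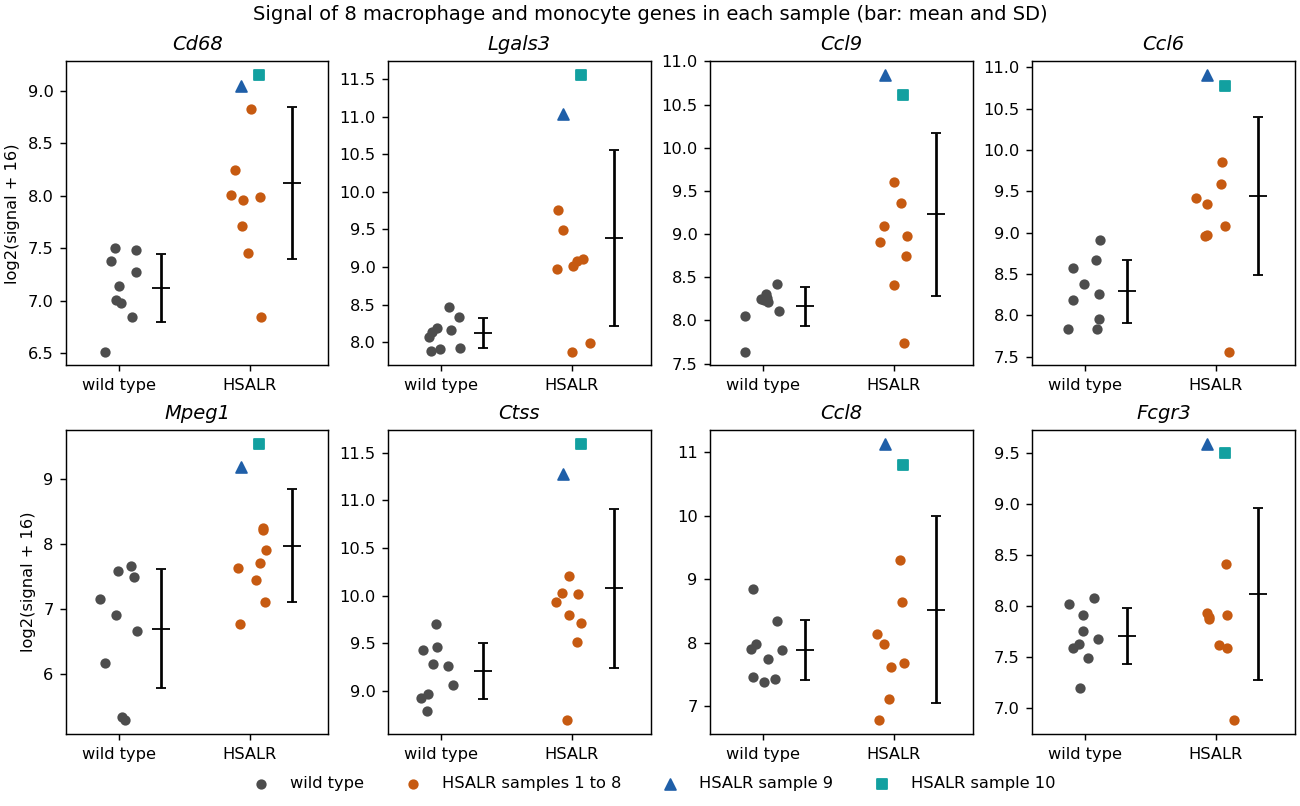
Log2(signal + 16) on the y axis of 8 genes in each wild-type sample and each HSALR sample; HSALR samples 9 and 10 have their own symbols, and the bars give mean and SD of each group. In Cd68 and Lgals3, 8 of 10 HSALR samples lie above all wild-type samples, and in Ccl8 and Fcgr3 3 of 10 do.

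Of the 5 chemokines, small secreted proteins that attract leukocytes, 3 were tested. Of these 3, Ccl6 and Ccl9 rose, beside 3.11% of all tested genes. Both are CC chemokines that macrophages secrete. Ccl6 had log2 signals of 7.83, 8.26 and 8.91 (lowest, median, highest) in wild type and 7.56, 9.38 and 10.9 in HSALR. All HSALR samples other than sample 5, which was the lowest of all 19, lay above every wild-type sample. The rise was 2.23-fold (log2 fold 1.16 ± 0.30, adjusted p = 0.0254), with 0.81 ± 0.23 and a narrow miss without samples 9 and 10 (adjusted p = 0.0541). Leaving out wild-type sample 3, 5 or 7 also lost the call (adjusted p up to 0.0538), as did dropping the filter (0.0553).

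Ccl9 had log2 signals of 7.64, 8.24 and 8.43 (lowest, median, highest) in wild type and 7.73, 9.04 and 10.8 in HSALR. In it 8 of 10 HSALR samples exceeded every wild-type sample, and samples 4 and 5 did not. The rise was 2.09-fold (log2 fold 1.06 ± 0.29, adjusted p = 0.0307), and 0.69 ± 0.19 without samples 9 and 10 (adjusted p = 0.0406). The call was lost without wild-type sample 2, 3 or 6 or HSALR sample 3 (adjusted p up to 0.0657) and without the filter (0.0651). Second probe sets of Ccl6 and Ccl9 also passed, with log2 folds of 1.16 ± 0.27 (adjusted p = 0.0117) and 1.18 ± 0.30 (adjusted p = 0.023).

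Ccl8, another CC chemokine, was high in HSALR samples 9 and 10. Its log2 signals there were 11.1 and 10.8. The other 8 HSALR samples lay between 6.78 and 9.30 and wild type between 7.38 and 8.85, so that those groups overlapped. Its log2 fold was 0.63 ± 0.45 with all samples (adjusted p = 0.453) and 0.02 ± 0.27 without samples 9 and 10 (adjusted p = 0.985). Ccl2, the main attractant of monocytes that carry CCR2, was below the filter, with signals from 4.67 to 6.49 in wild type and from 5.20 to 7.50 in HSALR, highest in HSALR sample 2. The related Ccl7 was also below it, at 4.69 to 5.97 in wild type and 4.29 to 6.88 in HSALR.

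None of the 7 tested surface receptors and adhesion molecules passed in limma. At an unadjusted p under 0.05, 6 were higher and none lower, beside 13.8% of all tested genes that were higher. Without samples 9 and 10, only Ptprc and Itgb2 were higher at that level, beside 8.38% of all tested genes. Ptprc, the phosphatase CD45 of all white blood cells, came nearest to passing with all samples (log2 fold 0.78 ± 0.25, adjusted p = 0.0734). Its signals were 6.46 to 7.49 in wild type and 6.43 to 9.10 in HSALR, with 7 of 10 HSALR samples above all wild-type samples. Itgb2, the beta chain of the leukocyte integrins, had a log2 fold of 0.53 ± 0.19 (adjusted p = 0.108). Without samples 9 and 10 the log2 folds of Ptprc and Itgb2 were 0.52 and 0.32. Both passed after quantile normalization, with adjusted p of 0.0243 and 0.0368. Itgam, the alpha chain that pairs with Itgb2 in the integrin Mac-1, was below the filter at 5.08 to 5.78 in wild type and 4.44 to 6.24 in HSALR.

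Csf1r, the receptor through which macrophages receive their survival signal, had log2 signals of 10.4, 10.7 and 11.2 (lowest, median, highest) in wild type and 10.2, 11.2 and 12.3 in HSALR. Its log2 fold was 0.54 ± 0.21 (adjusted p = 0.137), and 0.29 ± 0.16 without samples 9 and 10. The other tested probe sets of Csf1r had 0.68 ± 0.26 and 0.25 ± 0.20, and 0.34 and 0.03 without these samples. Mrc1, the mannose receptor, and Cd163, the scavenger receptor for haemoglobin, are carried by resident macrophages of muscle and had log2 folds of 0.54 ± 0.25 and 0.60 ± 0.25, and of 0.24 and 0.35 without samples 9 and 10. Ms4a7, a membrane protein of macrophages, had 0.66 ± 0.31, and 0.24 without these samples. Cd14, a co-receptor for bacterial lipopolysaccharide, had 0.64 ± 0.39, and 0.16 without them. In Cd14 wild-type sample 9, at 9.18, was higher than 7 of the other HSALR samples apart from 9 and 10. Trem2, a lipid-sensing receptor that signals through TYROBP, was below the filter, at 4.65 to 6.09 in wild type and 4.78 to 6.56 in HSALR.

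None of the 4 Fc receptors and adaptors passed in limma. At an unadjusted p under 0.05, 3 were higher and none lower, beside 13.8% of all tested genes that were higher. Without samples 9 and 10, only Tyrobp was higher at that level, beside 8.38% of all tested genes. Tyrobp, the adaptor DAP12, had log2 signals of 7.63 to 8.30 in wild type and 7.15 to 10.01 in HSALR and a log2 fold of 0.72 ± 0.26 (adjusted p = 0.113). It passed after quantile normalization (0.0431) and without HSALR sample 5 (0.0152), and its log2 fold was 0.42 without samples 9 and 10. Fcer1g, the common gamma chain of activating Fc receptors, had 0.74 ± 0.34, and 0.30 without samples 9 and 10. Fcgr3, an activating receptor for IgG, had 0.42 ± 0.26, and 0.06 ± 0.16 without samples 9 and 10, in which its signals were 9.59 and 9.50 beside 6.88 to 8.41 in the other 8 and 7.20 to 8.08 in wild type. Fcgr2b, the inhibitory receptor for IgG, had 0.56 ± 0.23 at its brightest probe set (0.33 without samples 9 and 10). At its other tested probe sets the log2 fold was 0.47 to 0.78, and 0.06 to 0.30 without these samples.

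The genes of C1q, whose chains A, B and C form 1 complex, had like values. C1qa, C1qb and C1qc differed by 0.66 ± 0.26, 0.71 ± 0.29 and 0.60 ± 0.30 on the log2 scale (adjusted p 0.157, 0.168 and 0.256). None of 3 passed in limma. At an unadjusted p under 0.05, 2 were higher and none lower, beside 13.8% of all tested genes that were higher. Without samples 9 and 10, none of them was higher at that level, beside 8.38% of all tested genes. C1qa ranged from 8.48 to 9.49 in wild type and from 8.64 to 9.91 in the HSALR samples other than 9 and 10, which were at 10.98 and 11.17. Without these samples the log2 folds of the C1q genes were 0.31, 0.33 and 0.21.

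Of the remaining genes, Lcp1, the actin-bundling protein L-plastin of white blood cells, had a log2 fold of 0.57 ± 0.27 (adjusted p = 0.239), and Cybb, the catalytic subunit of the phagocyte NADPH oxidase, 0.39 ± 0.20 (adjusted p = 0.273). Without samples 9 and 10 the log2 folds of Lcp1 and Cybb were 0.27 and 0.11. Cybb lay between 6.59 and 7.59 in HSALR samples other than 9 and 10, at 8.35 and 8.58 in those, and between 6.71 and 7.28 in wild type. Aif1, the calcium-binding protein IBA1 used to stain macrophages, was below the filter at 5.32 to 6.06 in wild type and 5.16 to 7.22 in HSALR.

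HSALR sample 9 or 10 was the highest of all 19 in 30 of 32 genes (8 and 22), and in 30 of 32 genes both lay above all other samples, as they did in 27 of the 27 tested genes and in 17% of all tested genes. The exceptions were Ccl2 and Trem2. Of 35 measured macrophage genes outside the list, both samples lay above all others in 20. The mean over those genes lay 0.78 and 0.94 above the wild-type mean in samples 9 and 10. The mean over the 32 genes lay 1.90 and 2.01 above the wild-type mean in HSALR samples 9 and 10 on the log2 scale. It lay between -0.56 and 0.85 in the other 8 and between -0.29 and 0.27 among wild-type samples. The mean over all tested genes was 0.22 and 0.29 above the wild-type mean in samples 9 and 10. After quantile normalization the 32 genes lay 1.68 and 1.74 above it in these samples and between -0.24 and 0.61 in the other 8.

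HSALR sample 5 was the lowest of all 19 samples in 22 of 32 genes. Among tested genes this was 21 of 27, beside 25.4% of all tested genes. Its mean over the 32 genes was 0.56 below the wild-type mean, and that over all tested genes 0.29 below it, the lowest of any sample. After quantile normalization the mean over the 32 genes lay at -0.24 relative to the wild-type mean, beside -0.22 in wild-type sample 3. HSALR samples 2, 3 and 8 were the highest of the other 8, with means of 0.71, 0.65 and 0.85 above wild type. After quantile normalization their means were 0.61, 0.52 and 0.55. The mean over all tested genes in sample 8 lay 0.30 above the wild-type mean, the highest of any sample.

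**Figure D3:**
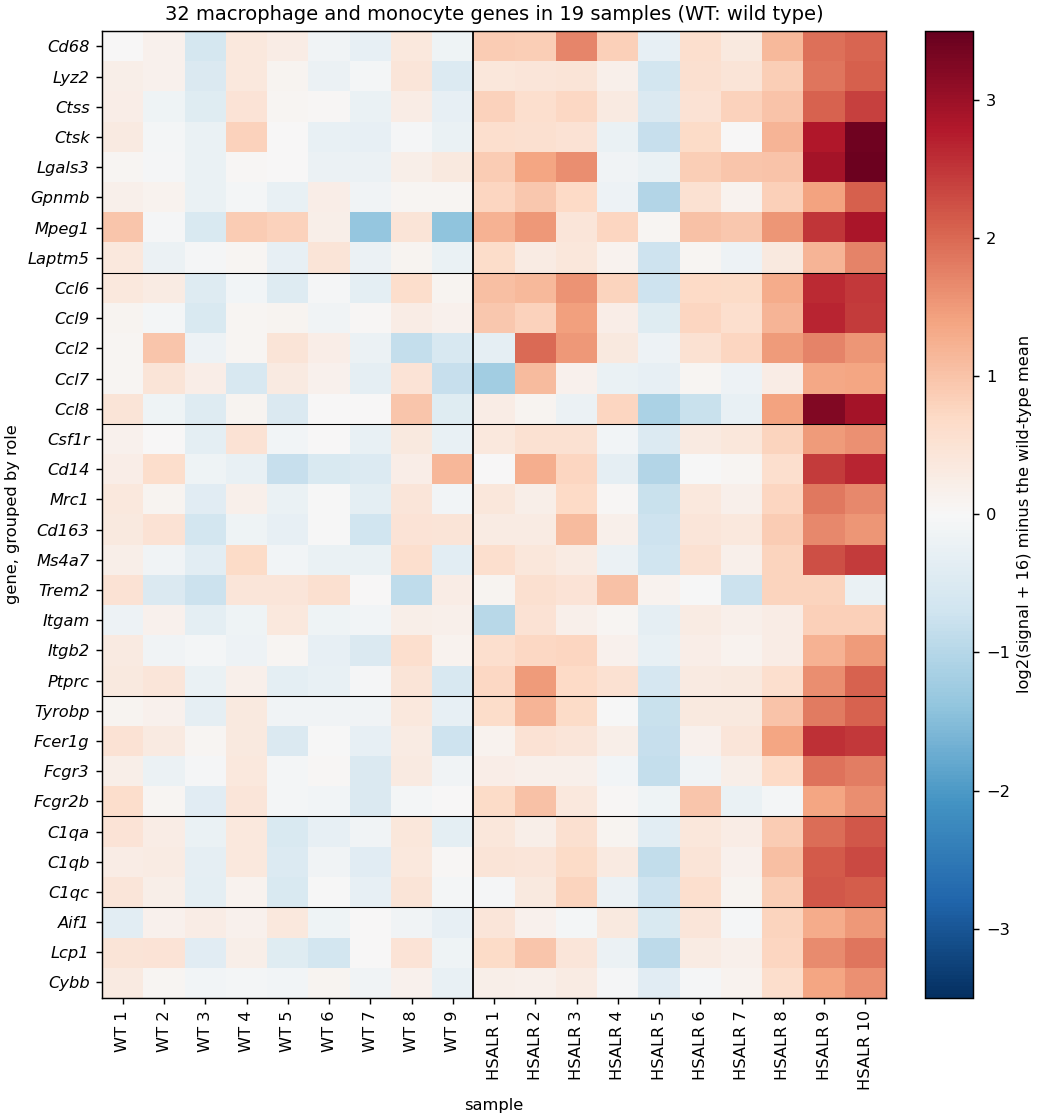
Log2(signal + 16) minus the wild-type mean for 32 genes (rows, grouped by role) in 19 samples (columns), red above and blue below the wild-type mean. HSALR samples 9 and 10 are red in nearly all rows, with means of 1.90 and 2.01, and HSALR sample 5 is blue in most, with a mean of -0.56.

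**Figure D4:**
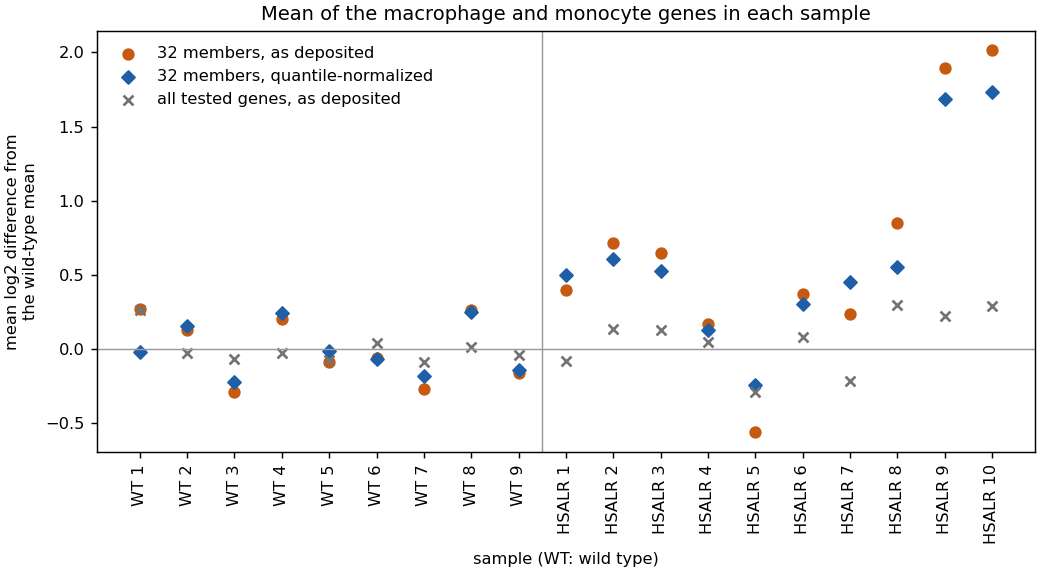
Mean log2 difference from the wild-type mean on the y axis in each of the 19 samples on the x axis, for the 32 genes as deposited (circles) and after quantile normalization (diamonds) and for all tested genes (crosses). HSALR samples 9 and 10 lie at 1.90 and 2.01 as deposited, above the 0.85 of HSALR sample 8.

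Some genes of the same pathways outside the list passed, and they are named below list by list. Among all tested genes 3.11% rose and 2.31% fell. More were higher in limma at an unadjusted p under 0.05, as were 13.8% of all tested genes. Among 25 tested macrophage genes that were not on the list, 10 were higher and 2 lower at that level. Among 20 tested lysosomal enzymes and membrane proteins, 10 were higher and 1 lower. Of 25 tested macrophage genes that were not on the list, Lyve1, a hyaluronan receptor of resident macrophages and lymphatic vessels (log2 fold 0.61 ± 0.18, adjusted p = 0.0475), and Vsig4, a complement receptor (0.65 ± 0.18, adjusted p = 0.0378), rose. Pla2g7, a secreted phospholipase that breaks down platelet-activating factor, fell (-1.02 ± 0.19, adjusted p = 0.0017). The median log2 fold of these 25 genes was 0.33, beside 0.05 over all tested genes, and without samples 9 and 10 it was 0.16, beside 0.01. The fall of Pla2g7 then passed and the rises of Lyve1 and Vsig4 (log2 folds 0.47 and 0.42) did not. Of 20 tested lysosomal enzymes and membrane proteins, the cathepsins Ctsc (0.60 ± 0.13) and Ctsz (0.58 ± 0.16) and the membrane protein Lamp2 (0.48 ± 0.13) rose and none fell. Only Ctsc passed without samples 9 and 10 (adjusted p = 0.0358).

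Among 13 tested chemokines, cytokines and their receptors, Cx3cl1, the ligand of the monocyte receptor CX3CR1, rose (log2 fold 0.43 ± 0.12). Of 3 tested partners of Cybb in the NADPH oxidase, Ncf1, a cytosolic subunit, rose (0.61 ± 0.18). Of 10 tested complement components and receptors, Cd55, an inhibitor of complement, rose (0.48 ± 0.13). Without samples 9 and 10 the log2 folds of Cx3cl1 and Cd55 were 0.41 and 0.44, close to those with all samples, and that of Ncf1 was 0.42. They then missed the threshold (adjusted p = 0.0759, 0.0835 and 0.136). None of 14 tested kinases and other proteins that act downstream of Fc receptors passed in limma, and at an unadjusted p under 0.05 1 was higher and none lower. None of 5 tested genes of antigen presentation on class II molecules passed in limma, and at an unadjusted p under 0.05 none was higher or lower.

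Some markers of other cells moved with the macrophage genes in HSALR samples 9 and 10, and their part in the result was not tested. Of 9 tested fibroblast and fibro-adipogenic markers, Pdgfra rose (log2 fold 0.74 ± 0.20), and in all 9 samples 9 and 10 lay above the other samples. The mean of this list lay 1.73 above the wild-type mean in each of these samples. Its summed signal was 61938 and 63322 there, beside 17352 to 39550 in the other HSALR samples and 20557 to 33967 in wild type. Tendon markers lay 1.19 and 1.504 above the wild-type mean in samples 9 and 10, mast cell markers 1.42 and 0.98, and osteoclast markers 0.83 and 1.30. Both samples lay above all others in 4 of 5 tendon, 3 of 6 mast cell and 3 of 7 osteoclast markers. Only 2 of the osteoclast markers passed the filter. Dcstamp, an osteoclast marker below it, read 4.57 and 5.73 there, beside a wild-type mean of 5.71. The Pdgfra call was lost without samples 9 and 10 (adjusted p = 0.0735). Of the fat cell markers, both tested ones rose, Adipoq, the hormone adiponectin (log2 fold 1.58 ± 0.41, adjusted p = 0.0237), and Retn, the hormone resistin (0.69 ± 0.16, adjusted p = 0.0146). Both also passed without samples 9 and 10, with log2 folds of 1.54 and 0.67. Relative to wild type, the mean of the fat cell list was 0.61 and 1.20 higher in samples 9 and 10 and between -0.01 and 1.52 for the other 8.

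Markers of other white blood cells differed from list to list in these samples, with those of mast cells given above. Genes of class II antigen presentation lay 0.99 and 1.42 above the wild-type mean in HSALR samples 9 and 10, beside a wild-type range up to 0.60. Dendritic cell markers lay 0.22 and 0.51 above it, beside a wild-type range up to 0.22. Neutrophil markers lay 0.30 and 0.15 below the wild-type mean in HSALR samples 9 and 10, with a summed signal of 573 and 601 beside 404 to 1936 in wild type and 425 to 5198 in the other HSALR samples. The highest of these values came from S100a8 and S100a9. Of 4 tested markers of B and plasma cells, Ighm, the heavy chain of IgM, fell (log2 fold -0.84 ± 0.13, adjusted p = 0.000416), and it passed without samples 9 and 10 too (-0.88). Markers of T and NK cells lay 0.24 and 0.20 above the wild-type mean in samples 9 and 10, within the wild-type range, which reached 0.30, and only 2 of 11 passed the filter. Endothelial markers, at 0.40 and 0.38, were within the wild-type range up to 0.46. The 10 markers of skeletal muscle fibres, which define the tissue, had summed signals of 115765 to 143896 in all samples, and their mean lay -0.04 and 0.01 from the wild-type mean in samples 9 and 10.

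**Figure D5:**
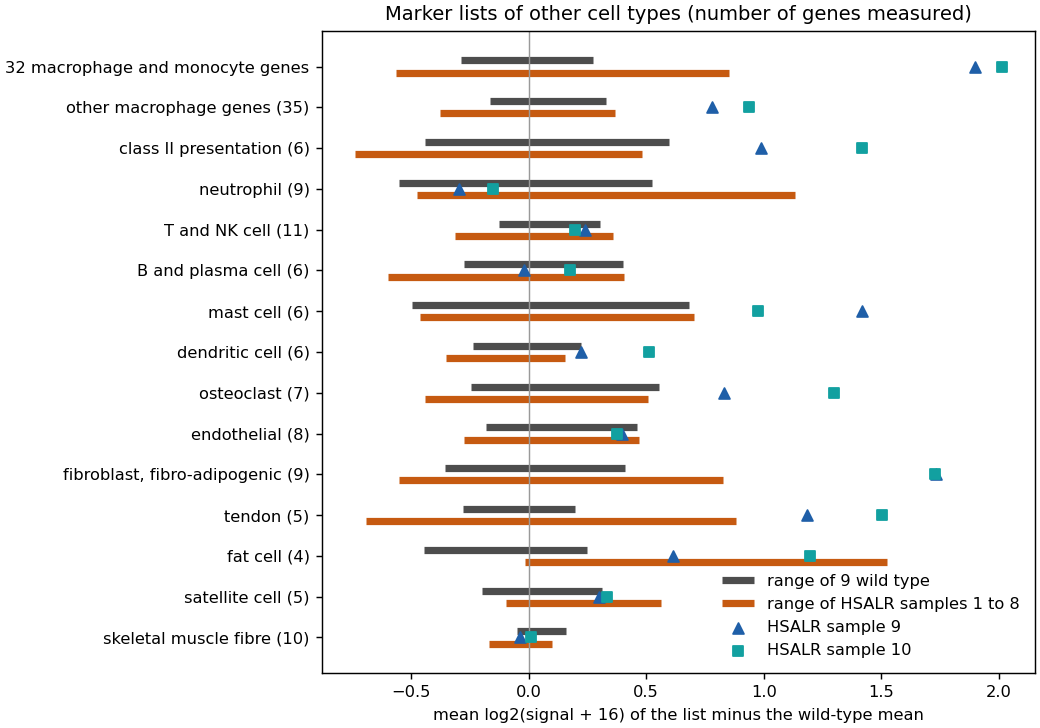
Mean log2(signal + 16) of each list minus its wild-type mean on the x axis, with bars for the range of the 9 wild-type samples and of HSALR samples 1 to 8 and symbols for HSALR samples 9 and 10. Fibroblast markers lie at 1.73 in both samples, while muscle fibre markers lie at -0.04 and 0.01.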

How the data were processed

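The authors deposited intensities on a linear scale for 45101 probe sets of 19 arrays. Per the submitters' processing notes, GCOS 1.4 was used. How it summarised and scaled the arrays is not given in the sources used here; array medians ranged from 39.7 to 71.9. From these intensities log2(value + 16) was computed. Without the 64 control probe sets, the 22519 with a mean at or above the median of all (6.09) were tested with limma 3.58.1 in R 4.3.3 (lmFit, eBayes, 2-sided, Benjamini-Hochberg over all tested probe sets, false discovery rate 0.05). Errors of log2 folds are standard errors. Symbols came from the platform annotation, updated through Entrez identifiers for 34741 of 34945 probe sets with 1 symbol; 932 had several symbols and 9160 none. All 33 listed genes were to be named, with members of other lists that passed, at most 4 each. The members and lists were chosen with earlier results of these data known. The fit was tested on simulated data. Same-numbered samples were not paired: 3 of 9 pairs correlated above 0.1. Plots came from Python 3.11.15 with matplotlib 3.10.9.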

Additional observations from a re-analysis of the deposited data

Results flagged for a closer look

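Of 64 groups of values (32 genes in wild type and in HSALR), 1 held a sample whose gap to its neighbour was large against the range of its group. In Ccl9, wild-type sample 3 had a log2 signal of 7.64, and the next wild-type sample was at 8.05, a gap of 0.522 of the whole range. Chance flags about 1 in 20 such groups. HSALR samples 9 and 10 lie close to each other, so this check does not pick out either one.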

How the results depend on the processing

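All 828 log2 folds of the 27 tested genes under the alternatives kept their direction. Of these, 750 also kept their side of the threshold, 43 passed newly and 35 no longer passed; the cause was not tested. Of 14 values from other tested probe sets of the same genes, 13 kept call and direction, and 1, of Laptm5, turned to -0.33. The 1140 probe sets called (645 rose, 495 fell) became 3343 after quantile normalization (1457 rose, 1886 fell), 2345 with arrays centred on their median (1051 and 1294), 2878 with array weights, 2169 with the control probe sets' 3'/5' ratio added as a covariate and 2468 without HSALR samples 9 and 10 after quantile normalization (1160 and 1308). With the replicate number as a block, which leaves out HSALR sample 10, 716 were called and 4 of the 27 genes rose. Without 1 sample the count lay between 858 and 2067. The 5 genes called became 9 after quantile normalization, 12 with array weights, 21 with the covariate, 3 without samples 9 and 10 and 1 without the filter, and lay between 1 and 15 without 1 sample. With 1 of 9 wild-type samples correlating best with its own number, the numbers show no pairing. Genes near the floor of 4 are limited by their signal over background.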

Other observations

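Pla2g7 fell, while Lyve1 and Vsig4 rose. Its log2 signal averaged 8.44 in wild type and lay between 6.64 and 7.52 in HSALR samples 1 to 8, below that mean. In HSALR samples 9 and 10 it was 8.31 and 8.39, close to wild type.

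Trem2 read 5.32 at its brightest probe set in HSALR sample 10. A dimmer probe set of Trem2 read 6.51 and 7.02 in HSALR samples 9 and 10, while none of the other 17 samples exceeded 4.94 there. That probe set was below the filter and was not tested.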
